A study of Mus musculus with 18 samples.

Results

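The 8 genes described here are chemokines of the CC family that draw monocytes out of blood, with their receptors: Ccl2, Ccl7, Ccl12, Ccl8, Ccl3, Ccl4, Ccr1 and Ccr2. They were taken by symbol from a table of 35405 mouse genes, in which each of the 8 symbols stands once. The study sequenced polyadenylated RNA from mouse colon tissue in 18 libraries, 6 named IBC, 6 named TNBS and 6 named vector. TNBS is trinitrobenzene sulfonic acid, a hapten given to mice to induce colitis, IBC is read here, from the title of the study, as isobavachalcone, a plant chalcone, and the vector libraries are called control in the table. That title names the receptor GPR84 and the kinases PI3K and AKT. The labels give no strain, sex, age, dose or time, do not state whether the IBC mice also received TNBS, and do not state whether the libraries are from separate animals, so p-values measure the spread between libraries.

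CC chemokines are small secreted proteins that bind G protein-coupled receptors on leukocytes. CCR2 lets Ly6C-high monocytes leave the bone marrow and enter inflamed tissue, where they become macrophages, and in the inflamed mouse colon such monocytes are a large part of the infiltrate. Ccl2, Ccl7 and Ccl12 encode ligands of CCR2, with Ccl12 described in the mouse. Mouse Ccl8 lies in the same gene cluster, is made by tissue macrophages and has been described as a ligand of CCR8. Ccl3 encodes a ligand of CCR1, and Ccl4 a closely related chemokine. CCR1 is carried by monocytes, macrophages and neutrophils.

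The table places Ccl2 (ENSMUSG00000035385, 81926397 to 81928279), Ccl7 (ENSMUSG00000035373, 81936538 to 81938351), Ccl12 (ENSMUSG00000035352, 81992671 to 81994226) and Ccl8 (ENSMUSG00000009185, 82006011 to 82007625) on the plus strand of chromosome 11 within 81.2 kb. Ccl3 (ENSMUSG00000000982, 83538670 to 83540181, minus strand) and Ccl4 (ENSMUSG00000018930, 83553410 to 83555509, plus strand) form a second pair on chromosome 11. Ccr1 (ENSMUSG00000025804, 123762161 to 123768729, minus strand) and Ccr2 (ENSMUSG00000049103, 123901987 to 123913594, plus strand) lie on chromosome 9. These are the table's own coordinates, and the table names no genome build. In the GENCODE M21 transcripts no run of 50 bases of the 6 ligands or of Ccr1 occurs in another gene, and for Ccr2 129 of 6758 such runs (1.91%) do. The table also lists Gm53692 on the opposite strand over Ccl3, with 0 to 29 counts in IBC, 6 to 24 in TNBS and 0 to 10 in vector libraries. Strand use in counting is not given in the sources used here, so reads of Gm53692 and Ccl3 cannot be told apart.

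RefSeq promoter sequences (GRCm38.p6) were found for 5 of the 8 genes. The 250 bases before the start of transcription are printed for Ccl12 and Ccl8, the neighbours in the cluster, because they hold the same TATAAA box at nearly the same place, 5′ to 3′ with that box in capitals. The first lies at chr11:82101595-82101844 and the second at chr11:82114935-82115184, both on the plus strand.
Ccl12: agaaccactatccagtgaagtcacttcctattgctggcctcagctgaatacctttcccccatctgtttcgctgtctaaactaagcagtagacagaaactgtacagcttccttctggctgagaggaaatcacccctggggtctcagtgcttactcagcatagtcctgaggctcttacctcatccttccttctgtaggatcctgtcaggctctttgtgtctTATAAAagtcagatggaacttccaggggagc
Ccl8: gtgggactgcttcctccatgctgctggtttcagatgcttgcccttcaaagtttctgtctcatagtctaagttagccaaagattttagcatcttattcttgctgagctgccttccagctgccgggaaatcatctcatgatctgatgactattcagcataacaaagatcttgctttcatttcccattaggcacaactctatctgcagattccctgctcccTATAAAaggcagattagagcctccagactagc
TATAAA begins 31 bases before the start in Ccl12 and 32 bases before it in Ccl8, and 12.4% of 32851 mouse promoter windows of this length hold it on either strand. Aligned end to end, the Ccl12 and Ccl8 windows were identical in 55.6% of aligned columns, against 43.5% to 50.4% for the other 9 pairs among the 5 genes. TGANTCA (the AP-1 motif, in 6.75% of all windows), TTCNNNGAA (the STAT motif, in 7.02%) and the NF-kB motif (in 4.65%) had no match on either strand in the windows of Ccl12, Ccl8, Ccl3, Ccr1 or Ccr2. A looser form of the NF-kB motif, which includes every match of the stricter form, had 1 match, in Ccr1 from 74 to 65 bases before the start, and stands in 16.5% of all windows. These matches describe the letters of the windows only.

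The total count of a library ran from 55669263 to 78874868. Levels within a gene are given as CPM, counts scaled to an effective library total of 1e+06. That total is the sum over the genes tested times the TMM normalization factor of the library. Levels between genes are given as FPKM, which is also divided by transcript length. The homeobox gene Hoxb13, which marks the most posterior gut, was at 123 to 598 CPM in 12 libraries and at 0 to 1.44 CPM in the other 6 (IBC 2 and 5, TNBS 2 and 3, vector 3 and 4), so each group holds 4 Hoxb13-high and 2 Hoxb13-low libraries. Vector 3 stood apart in mitochondrial counts, with 17.98% against 4.48% to 9.20% in the other 17 libraries. Epcam, which marks epithelium, had a median of 1550 CPM in IBC, 1636 in TNBS and 1387 in vector libraries, and Myh11, which marks smooth muscle, had 436, 337 and 671 CPM.

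TNBS was first set against vector, the contrast of the colitis model with its control. All 8 genes had a higher fitted level in TNBS, as did 48.9% of all 20855 genes tested. For 5 of them, Ccl2, Ccl7, Ccl3, Ccl4 and Ccr2, the lowest TNBS library lay above the highest vector library, which held for 0.432% of all genes. Ccl3 and Ccl4 had at most 4 and 9 counts in any vector library. They passed the filter on low counts only through TNBS and IBC libraries. Their lack of overlap and p-values are therefore not taken as support. Ccl2 had the smallest adjusted p, with a fitted level 8.14 times that of vector. With edgeR 0 of the 8 passed after adjustment over all genes, where 0.0192% of all genes tested passed. At an unadjusted p under 0.05, 8 of 8 were higher, Ccl3 and Ccl4 included, against 10.4% of all genes. DESeq2 called 7 of the 8 (all but Ccl8), among 560 of all genes. Without TNBS 5 it called 5 of the 8, among 255 of all genes, while limma on log2 FPKM called 0 of the 8. The median log2 difference over the 8 was 2.37, against -0.01 over all genes tested.

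**Figure D1:**
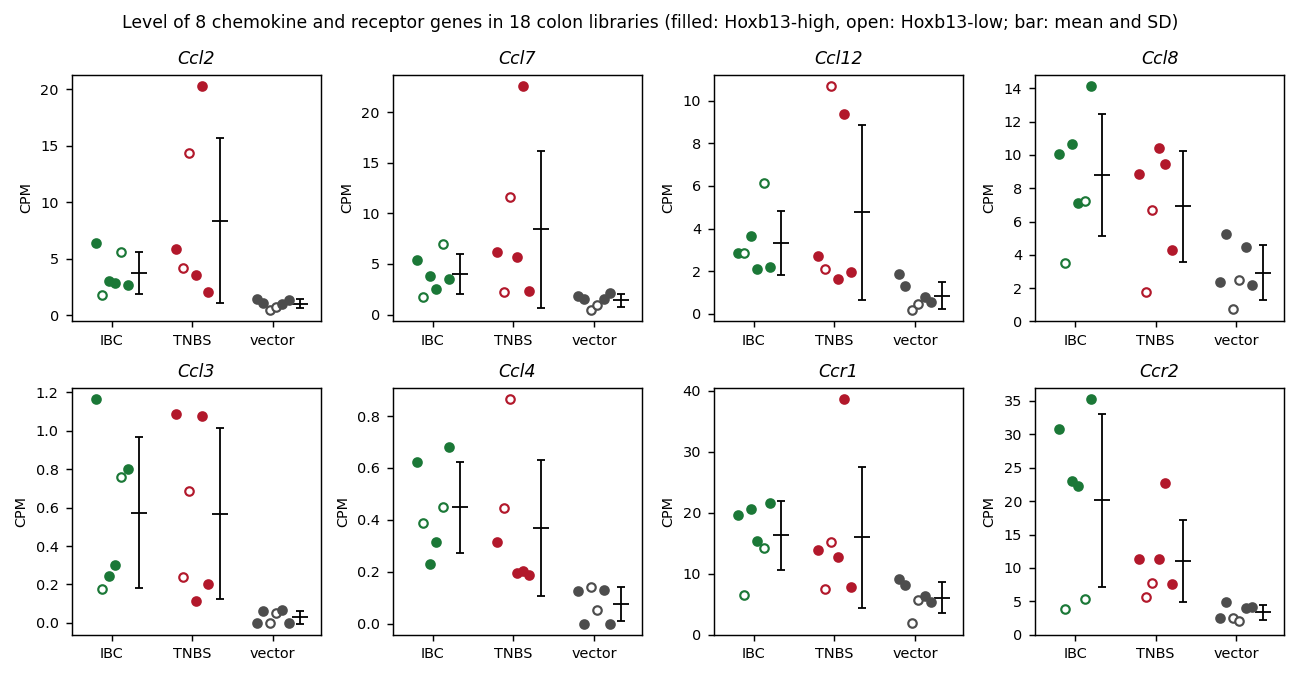
CPM of the 8 genes (y axes, linear) in each of 18 libraries, by group (x axes: IBC, TNBS, vector). Filled points are Hoxb13-high and open points Hoxb13-low libraries, and the bar beside each group is its mean and SD. In TNBS the highest Ccl2 and Ccl7 values belong to TNBS 5 and TNBS 3, and Ccr2 in IBC separates into 4 libraries at 22.3 CPM or more and 2 at 5.36 CPM or less.

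The 3 ligands of CCR2 had similar patterns. Ccl2 was at 2.05 CPM in the lowest, 5.01 in the median and 20.3 in the highest TNBS library, and at 0.442, 1.07 and 1.44 CPM in vector. Its groups did not overlap, and the TNBS libraries spread over a far wider range than the vector libraries, with TNBS 5 at 20.3 and TNBS 3 at 14.4 CPM. Its mean was 8.38 ± 7.29 CPM in TNBS and 1.03 ± 0.376 CPM in vector (SD, n = 6 each), a log2 difference of 3.03 ± 0.52 (SE, edgeR adjusted p = 0.0559).

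Ccl7 ran from 2.19 to 22.6 CPM in TNBS with a median of 5.94, and from 0.426 to 2.09 CPM in vector with a median of 1.53. These groups did not overlap either, and the same TNBS libraries, 5 and 3, were highest. The log2 difference was 2.59 ± 0.55 (SE, n = 6 each, edgeR adjusted p = 0.0909). Ccl12 ran from 1.64 to 10.7 CPM in TNBS with a median of 2.43, and from 0.174 to 1.88 CPM in vector with a median of 0.691. In this gene TNBS 4, the lowest of its group, fell inside the vector range, and TNBS 3 was highest. Its log2 difference was 2.46 ± 0.57 (SE, n = 6 each, edgeR adjusted p = 0.0939).

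Ccl8 had the smallest difference of the ligands. It ran from 1.79 to 10.4 CPM in TNBS with a median of 7.78, and from 0.774 to 5.27 CPM in vector with a median of 2.42. TNBS 2 and TNBS 6 lay inside the vector range. The log2 difference was 1.24 ± 0.44 (SE, n = 6 each, edgeR adjusted p = 0.198).

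Ccl3 and Ccl4 were nearly undetected in vector. Ccl3 had counts of 73, 15, 46, 7, 58 and 13 in TNBS 1 to 6, against 0, 4, 0, 4, 4 and 0 in vector 1 to 6. Ccl4 had counts of 21, 28, 58, 12, 11 and 12 in TNBS 1 to 6, against 8, 0, 9, 4, 8 and 0 in vector 1 to 6. Neither gene overlapped between the groups. Among the low counts of the table a count of 4 is more frequent (19961 gene and library pairs) than a count of 3 (9977), so that 4 counts may be fewer than 4 sequenced fragments, and no upper limit is set on a count of 0. The fitted log2 differences were 4.14 ± 0.84 for Ccl3 (SE, n = 6 each, edgeR adjusted p = 0.0903) and 2.28 ± 0.68 for Ccl4 (edgeR adjusted p = 0.154). The fitted size depends on the constant added to low values: on log2(FPKM + 1) the Ccl3 difference was 0.60 and that of Ccl4 0.41.

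Of the receptors, Ccr1 ran from 7.57 to 38.6 CPM in TNBS with a median of 13.3, and from 1.97 to 9.20 CPM in vector with a median of 6.01. TNBS 5 was far above the other TNBS libraries, and TNBS 2 and 6 lay inside the vector range. Ccr2, the receptor for Ccl2, Ccl7 and Ccl12, ran from 5.59 to 22.7 CPM in TNBS with a median of 9.49, and from 2.10 to 4.90 CPM in vector with a median of 3.27. Its groups did not overlap. The log2 differences were 1.39 ± 0.41 for Ccr1 (SE, n = 6 each, edgeR adjusted p = 0.151) and 1.71 ± 0.47 for Ccr2 (edgeR adjusted p = 0.134). In bulk tissue, more cells that carry a receptor and more RNA of it per cell cannot be told apart.

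Leaving out a single library changed which genes passed. Without TNBS 6, the TNBS library lowest in Ccl2, 4 of the 8 passed between TNBS and vector, among 323 of all genes: Ccl2 (log2 difference 3.23, edgeR adjusted p = 0.0129), Ccl7 (2.79, edgeR adjusted p = 0.0197), Ccl3 (4.32, edgeR adjusted p = 0.0256) and Ccl12 (2.62, edgeR adjusted p = 0.0378). Dropping the TNBS library lowest in Ccl2 favours a pass of that gene. Ccl3 passed the filter on low counts only through TNBS and IBC libraries. The passes without TNBS 6 are therefore not taken as support. Without IBC 2, which enters through the shared estimate of the spread, Ccl2 passed (edgeR adjusted p = 0.0469). Without each library in turn, the Ccl2 difference ran from 2.56 to 3.23 and the smallest of any gene was 0.92, for Ccr1 without TNBS 5.

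**Figure D2:**
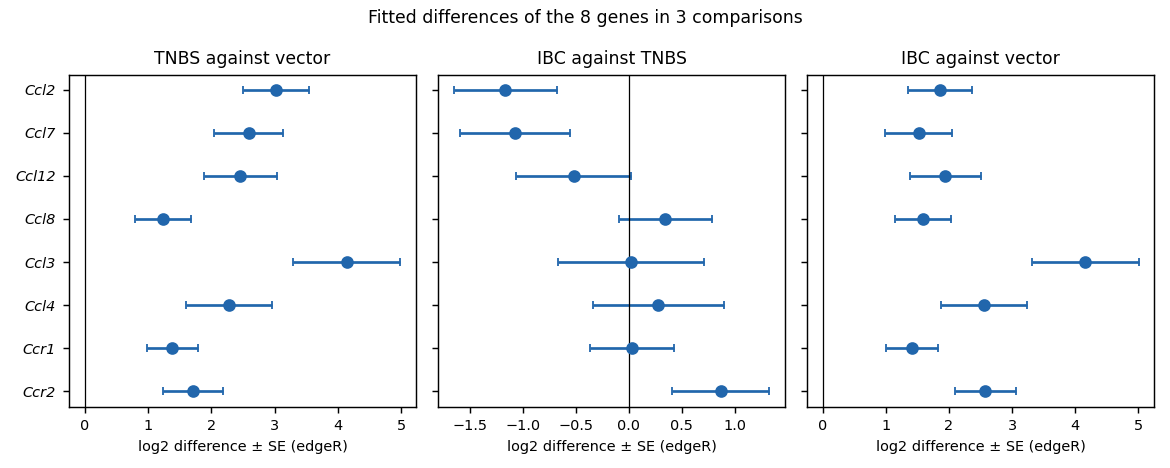
Log2 difference (x axes) with its SE from edgeR for each of the 8 genes (y axis) in the 3 comparisons, each with 6 libraries per group. All 8 points lie above 0 in TNBS against vector and in IBC against vector, and in IBC against TNBS they lie on both sides of 0, from -1.17 for Ccl2 to 0.87 for Ccr2.

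IBC was next set against TNBS. The same TNBS libraries enter here with the opposite sign, so the values of both comparisons are given side by side only. The CCR2 ligands Ccl2, Ccl7 and Ccl12 had lower fitted levels in IBC, and Ccr2 and Ccl8 had higher ones. In all 5 of the 8 genes had a difference above 0, against 50.3% of all genes, and for none of the 8 were the groups free of overlap, against 0.0527% of all genes free of overlap and higher and 0.0959% free of overlap and lower. With edgeR 0 of the 8 passed after adjustment over all genes, where 0 of all genes passed, and DESeq2 and limma also called 0 of the 8. At an unadjusted p under 0.05, 1 of the 8 (Ccl2) was lower and 0 were higher, against 2.22% and 1.71% of all genes. The median log2 difference over the 8 was 0.02, against 0.00 over all genes.

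Ccl2 was at 1.75 CPM in the lowest, 2.96 in the median and 6.44 in the highest IBC library, and at 2.05, 5.01 and 20.3 CPM in TNBS. The groups overlapped, with 4 of 6 IBC libraries below the TNBS median, and the wide range in TNBS came from TNBS 5 and TNBS 3. The mean was 3.73 ± 1.84 CPM in IBC and 8.38 ± 7.29 CPM in TNBS (SD, n = 6 each), and the log2 difference was -1.17 ± 0.49 (SE, edgeR adjusted p = 0.925). Without TNBS 5 it was -0.68. Ccl7 had a median of 3.66 CPM in IBC and 5.94 in TNBS, with 5 of 6 IBC libraries below the TNBS median (log2 difference -1.07 ± 0.52, SE, edgeR adjusted p = 0.925), and -0.48 without TNBS 5. For Ccl12 the median was higher in IBC (2.88 CPM) than in TNBS (2.43 CPM), while the mean was lower, at 3.31 ± 1.495 CPM in IBC and 4.76 ± 4.12 CPM in TNBS (SD, n = 6 each), and the log2 difference was -0.52 ± 0.54 (SE, edgeR adjusted p = 0.927).

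Ccr2 was at 3.83 CPM in the lowest, 22.7 in the median and 35.3 in the highest IBC library, and at 5.59, 9.49 and 22.7 CPM in TNBS. IBC 1, 3, 4 and 6 held 22.3 to 35.3 CPM, while IBC 2 and IBC 5 held 3.83 and 5.36 CPM, below every TNBS library. The log2 difference was 0.87 ± 0.46 (SE, n = 6 each, edgeR adjusted p = 0.925). The other 4 genes were close to 0 or uncertain in sign, with log2 differences of 0.35 ± 0.44 for Ccl8, 0.28 ± 0.62 for Ccl4, 0.03 ± 0.40 for Ccr1 and 0.02 ± 0.69 for Ccl3 (SE, n = 6 each, edgeR adjusted p from 0.943 to 0.996). For each of these 4 genes the SE is larger than the difference itself, as it is for Ccl12.

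The 2 IBC libraries low in Ccr2 are the Hoxb13-low ones. They also differed from the other 4 IBC libraries in summed markers: fibroblast markers were at 731 and 615 CPM in IBC 2 and 5, against 2302 to 3463 CPM in IBC 1, 3, 4 and 6, macrophage markers at 403 and 507 against 765 to 1258 CPM, and epithelial markers at 19279 and 25161 against 6260.2 to 8177 CPM. The part of these cells in the Ccr2 level was not tested. Among Hoxb13-high libraries Ccr2 averaged 27.8 ± 6.27 CPM in IBC, 13.2 ± 6.58 in TNBS and 3.90 ± 1.00 in vector (SD, n = 4 each), and IBC and TNBS overlapped only in IBC 4 (22.3 CPM) and TNBS 5 (22.7 CPM). Among Hoxb13-low libraries Ccr2 was at 3.83 and 5.36 CPM in IBC, 5.59 and 7.70 in TNBS and 2.53 and 2.10 in vector. In a fit with a mean for each group and Hoxb13 set, chosen after the values were seen, the log2 difference of IBC from TNBS was 1.08 ± 0.30 in the high set (SE, n = 4 each, edgeR adjusted p = 0.412, where 0 of all genes passed) and -0.53 ± 0.43 in the low set (SE, n = 2 each, edgeR adjusted p = 1). The difference between the sets was 1.61 ± 0.52 (SE) and did not pass over all genes (edgeR adjusted p = 0.895), where 0.00959% of all genes passed. Ccl2 had like differences in both sets, -1.07 ± 0.61 in the high and -1.34 ± 0.86 in the low set (SE, edgeR adjusted p = 0.986 for the difference between the sets).

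**Figure D3:**
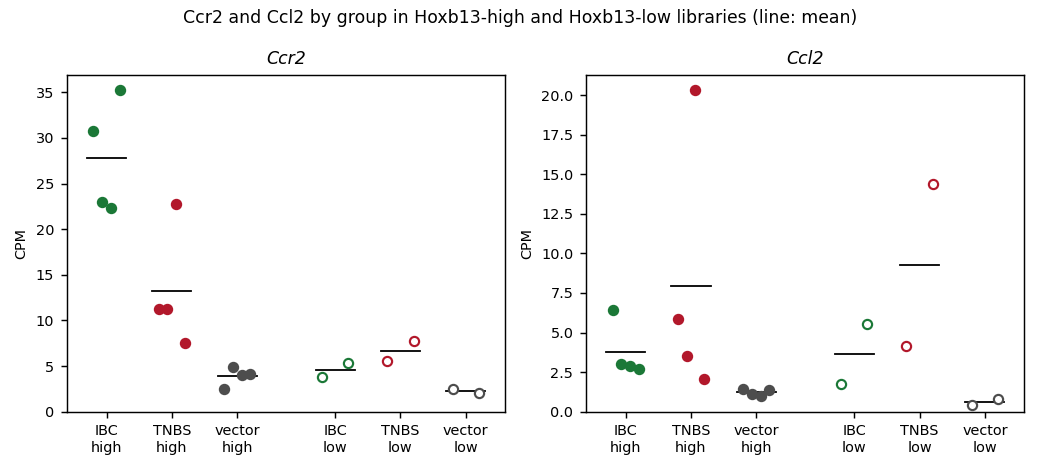
CPM (y axes, from 0) of Ccr2 and Ccl2 in single libraries, by group and by Hoxb13 set (x axes: IBC, TNBS and vector in the high set with 4 libraries each, then in the low set with 2 each). Lines are means. For Ccr2 the IBC mean is 27.8 CPM in the high set and 4.60 CPM in the low set, while for Ccl2 it is 3.77 and 3.65 CPM.

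The comparison of IBC with vector shares its libraries with both comparisons above. All 8 genes again had higher fitted levels, in IBC than in vector, with a median log2 difference of 1.899 against -0.01 over all genes tested, of which 49.1% were above 0. For 4 of the 8, Ccl2, Ccl12, Ccl3 and Ccl4, the lowest IBC library lay above the highest vector library, which held for 0.446% of all genes. For Ccl3 and Ccl4, which passed the filter on low counts only through TNBS and IBC libraries, neither this nor their p-values are taken as support. With edgeR 0 of the 8 passed over all genes, where 0 of all genes passed. At an unadjusted p under 0.05, 8 of 8 were higher, Ccl3 and Ccl4 included, against 4.9% of all genes. DESeq2 called 7 of the 8 (all but Ccl7), among 197 of all genes, and limma called 0 of the 8.

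Ccr2 averaged 20.1 ± 13.0 CPM in IBC and 3.37 ± 1.14 CPM in vector (SD, n = 6 each), with IBC 2 the only IBC library inside the vector range. Its log2 difference was 2.57 ± 0.49 (SE, edgeR adjusted p = 0.125). Without each library in turn it ran from 2.34 to 2.79 (edgeR adjusted p from 0.0213 to 0.353). Ccr2 passed only without IBC 2, the IBC library lowest in this gene, among 5 of all genes. Leaving out the lowest library favours a pass, so this is not taken as support. In the Hoxb13-high set of the fit with a mean per group and set, the log2 difference of Ccr2 was 2.83 ± 0.32 (SE, n = 4 each, edgeR adjusted p = 0.00158), where 0.432% of all genes passed. That fit was chosen after the values were seen. Its high set leaves out IBC 2 and IBC 5, the IBC libraries lowest in Ccr2, so this pass is not taken as support. A fit of the 12 Hoxb13-high libraries alone gave 2.87 (edgeR adjusted p = 0.0266), among 30 of all genes. It compares the same IBC and vector libraries, so it is not taken as support either. In the same Hoxb13-high libraries the summed fibroblast markers were at 2302 to 3463 CPM in IBC and 648 to 1032 CPM in vector, and the summed macrophage markers at 765 to 1258 CPM in IBC and 488 to 784 CPM in vector, and their part in the Ccr2 difference was not tested. In the low set of the fit with a mean per group and set, the log2 difference of Ccr2 was 0.99 ± 0.43 (SE, n = 2 each, edgeR adjusted p = 0.328). The difference between the sets did not pass (1.84 ± 0.53, SE, edgeR adjusted p = 0.191, where 0.0048% of all genes passed).

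The 3 ligands of CCR2 had smaller fitted differences from vector in IBC than in TNBS, each above 0. The Ccl12 median was nevertheless higher in IBC (2.88 CPM) than in TNBS (2.43 CPM). The log2 difference of IBC from vector was 1.86 ± 0.50 for Ccl2, 1.52 ± 0.53 for Ccl7 and 1.94 ± 0.57 for Ccl12 (SE, n = 6 each, edgeR adjusted p = 0.27, 0.396 and 0.304). With a mean per group and Hoxb13 set, all 3 values were larger in the low than in the high set. Ccl12 had 3.85 ± 0.95 against 1.25 ± 0.60 and Ccl7 2.66 ± 0.94 against 1.12 ± 0.63. Ccl2 had 2.58 ± 0.92 against 1.60 ± 0.62 (SE, n = 2 each low, n = 4 each high). None of these gaps passed over all genes (edgeR adjusted p = 0.365, 0.555 and 0.711). Ccl12 in TNBS also stood further above vector in the low (4.36 ± 0.97) than in the high set (1.78 ± 0.61, SE), a gap that did not pass. Ccl8 ran from 3.49 to 14.2 CPM in IBC with a median of 8.64, and from 0.774 to 5.27 CPM in vector, with a log2 difference of 1.59 ± 0.45 (SE, edgeR adjusted p = 0.284). Ccl3 had counts of 84, 11, 17, 21, 54 and 61 in IBC 1 to 6 and Ccl4 had 45, 24, 16, 22, 32 and 52, against at most 4 and 9 counts in any vector library. Ccr1 ran from 6.44 to 21.6 CPM in IBC, with IBC 2 alone inside the vector range of 1.97 to 9.20 CPM, and its log2 difference was 1.41 ± 0.41 (SE, edgeR adjusted p = 0.303).

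Per transcript length, Ccl8 was the most abundant of the 6 ligands in every IBC and every vector library and in TNBS 1, 4 and 6, while Ccl12 led in TNBS 2 and 3 and Ccl7 in TNBS 5. The 6 ligands summed to 14.5 to 42.5 FPKM in IBC, 13.1 to 61.3 in TNBS and 2.25 to 14.3 in vector libraries. Ccl8 made up 51.4% ± 12.3 of that sum in IBC, 37.0% ± 16.8 in TNBS and 55.4% ± 11.4 in vector (SD, n = 6 each), and Ccl2 9.80% ± 3.03, 16.6% ± 6.40 and 9.66% ± 2.98. Ccl3 and Ccl4 stayed at or below 4.49% each in every IBC and TNBS library. In FPKM the order of medians in TNBS was Ccl8 (12.4), Ccl7 (7.002), Ccl12 (4.28), Ccl2 (4.17), Ccl3 (0.516) and Ccl4 (0.359), and the ranges of the first 4 overlapped. For the receptors the FPKM medians were 6.14 for Ccr1 and 3.27 for Ccr2 in IBC, 4.32 and 1.25 in TNBS, and 1.93 and 0.439 in vector.

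**Figure D4:**
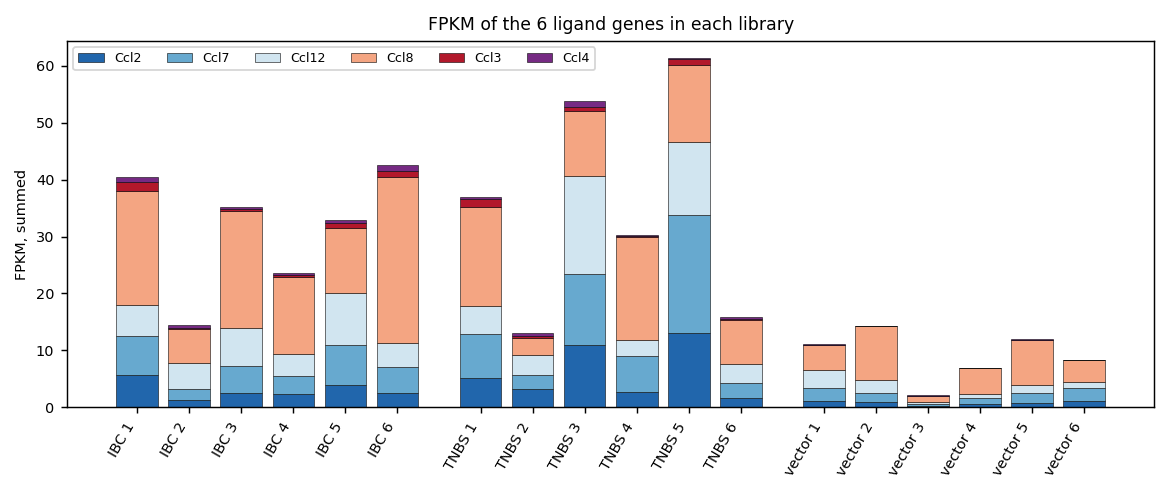
FPKM of the 6 ligand genes (y axis, stacked from 0) in each library (x axis: IBC 1 to 6, TNBS 1 to 6, vector 1 to 6). The stacks reach 14.5 to 42.5 FPKM in IBC, 13.1 to 61.3 in TNBS and 2.25 to 14.3 in vector, and the largest Ccl2 and Ccl7 segments are in TNBS 5 and TNBS 3.

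Ratios within a library, chosen after the values were seen, set Ccl2 against its receptor and against Ccl8. On FPKM the log2 ratio of Ccl2 to Ccr2 averaged 0.41 ± 1.38 in IBC, 1.87 ± 1.04 in TNBS and 0.81 ± 0.61 in vector (SD, n = 6 each). The log2 ratio of Ccl2 to Ccl8 averaged -2.41 ± 0.75 in IBC, -1.13 ± 1.26 in TNBS and -2.55 ± 0.73 in vector (SD, n = 6 each). None of the 6 differences between groups passed a two-sided exact permutation test after adjustment over the 6, where the smallest p that 6 against 6 allows is 0.00216. For IBC against TNBS the exact permutation p was 0.0628 for Ccl2 to Ccr2 (difference -1.46, adjusted p = 0.101) and 0.0671 for Ccl2 to Ccl8 (difference -1.29, adjusted p = 0.101). The smallest of the 6 exact permutation p-values was 0.0476, for Ccl2 to Ccl8 in TNBS against vector (difference 1.43, adjusted p = 0.101). The ratio of Ccl2 to Ccr2 was lower in IBC than in TNBS within both Hoxb13 sets. The differences were -1.79 in the high (n = 4 each) and -0.78 in the low set (n = 2 each). For IBC against vector the sets differed in sign, with -1.32 in the high and 1.47 in the low set.

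The 8 genes varied together between libraries to different degrees. Over the 18 libraries Ccl2 and Ccl7 had a Spearman correlation of 0.94 in log2 CPM, and 0.96 within the 12 Hoxb13-high libraries, while Ccl2 and Ccl8 had 0.59 and 0.63. Ccr1 and Ccr2 had 0.86 in both. These correlations are descriptions that hold the differences between groups within them. By the same measure the genes most like each member were Acot9, Plaur and Ifitm1 for Ccl2 (0.89 to 0.93), Gm14681, Npm1 and Gm9118 for Ccl7 (0.91 to 0.94), Acot9, Rpl17 and Rad51ap1 for Ccl12 (0.87 to 0.90), Fcgr2b, C3ar1 and Pira1 for Ccl8 (0.89 to 0.95), Cxcl1, Dok2 and Cwh43 for Ccl3 (0.91 to 0.93), Sulf2, Cxcl2 and Kcnab3 for Ccl4 (0.82 to 0.90), Mmp27, Fcgr1 and Wfdc17 for Ccr1 (0.94 to 0.97) and Gm36161, B430306N03Rik and Hdc for Ccr2 (0.94 to 0.95). Mmp27, the gene most like Ccr1, averaged only 0.131 CPM over the 18 libraries, so its ranks rest on low counts.

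Of 14 other CC chemokines 13 were tested, and 0 passed over all genes with edgeR in any comparison. Between TNBS and vector 3 of the 13 were higher at an unadjusted p under 0.05, against 10.4% of all genes, and the median log2 difference of the 13 was 0.29. Ccl24, which draws eosinophils, ran from 0.776 to 29.7 CPM in TNBS and from 0.380 to 1.502 CPM in vector (log2 difference 2.99 ± 0.70, SE, n = 6 each, edgeR adjusted p = 0.0939). Ccl9 averaged 79.6 ± 61.0 CPM in TNBS and 25.6 ± 9.35 CPM in vector (SD, n = 6 each, edgeR adjusted p = 0.103). Ccl11, an eosinophil chemokine of the same cluster as Ccl2, averaged 15.4 ± 5.29 CPM in IBC, 37.8 ± 23.8 in TNBS and 15.9 ± 6.81 in vector (SD, n = 6 each). Its log2 difference was 1.25 ± 0.37 for TNBS against vector (SE, edgeR adjusted p = 0.151) and -1.29 ± 0.37 for IBC against TNBS (SE, edgeR adjusted p = 0.925), which share the TNBS libraries.

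Of 13 other chemokine receptors and scavengers, 12 were tested and 0 passed. Ccr3, the receptor of eosinophils, had medians of 1.42, 0.731 and 0.283 CPM in IBC, TNBS and vector. Ackr4, which scavenges other CC chemokines, was lower in TNBS, at a median of 2.93 CPM against 5.71 CPM in vector (edgeR adjusted p = 0.138). Ccr8 did not pass the filter on low counts and stood at no more than 0.129 CPM in any IBC, 0.248 in any TNBS and 0.503 in any vector library.

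Of 8 cytokines known to induce these chemokines, 7 were analysed here and 4 passed the filter on low counts and were tested, and each of the 4 was higher in TNBS than in vector at an unadjusted p under 0.05, against 10.4% of all genes, with 0 passing over all genes. Tnf had a median of 2.17 CPM in IBC, 2.82 in TNBS and 0.708 in vector, and Il1b 8.49, 8.46 and 1.70 CPM. Il1a had medians of 0.752, 1.17 and 0.181 CPM, and Il6, the remaining one, 0.262, 0.475 and 0 CPM in the same order of groups. At that vector median Il6 could pass the filter on low counts only with TNBS or IBC libraries. Its p-value is therefore not taken as support. The adjusted p-values from edgeR for TNBS against vector were 0.107, 0.138 and 0.127 for Tnf, Il1b and Il1a.

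**Figure D5:**
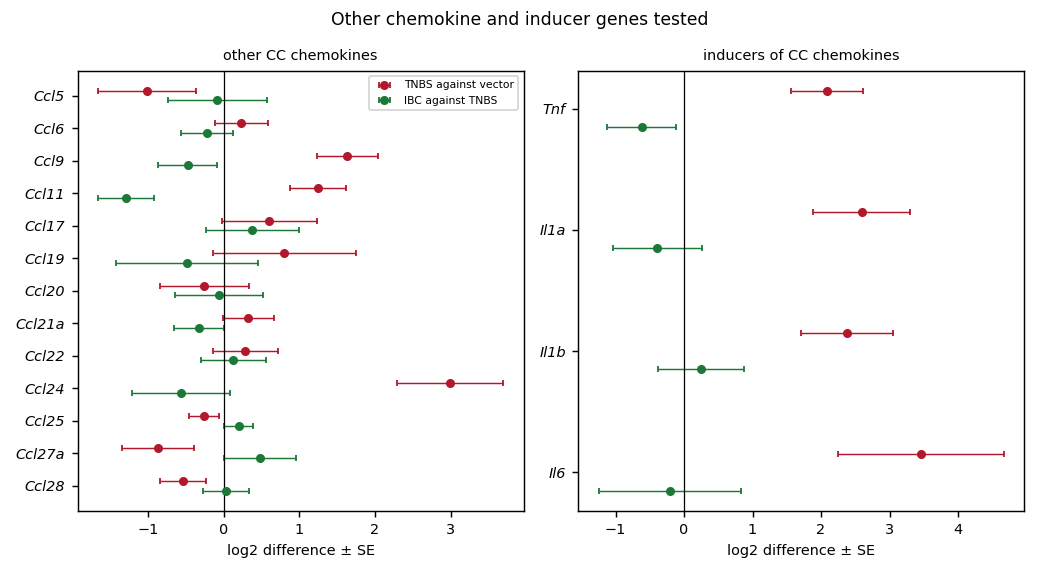
Log2 difference (x axes) with its SE from edgeR for the tested genes among the other CC chemokines and the inducing cytokines (panels; y axes: genes), for TNBS against vector in red and IBC against TNBS in green, 6 libraries per group. Ccl24 (2.99), Ccl9 (1.63) and Ccl11 (1.25) stand above 0 in TNBS against vector, and Ccl11 (-1.29) below 0 in IBC against TNBS.

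Markers of cells that could carry these genes were compared in the same libraries, and 1 of them passed over all genes, in TNBS against vector. Of 9 monocyte markers 5 were higher in TNBS than in vector at an unadjusted p under 0.05 (1 passed over all genes), of 12 macrophage markers 6 (0 passed), of 9 tested neutrophil markers 9 (0 passed) and of 7 mast cell markers 3 (0 passed), where 10.4% of all genes were higher at that p. Chil3, which passed, had a median of 5.70 CPM in TNBS and 0 in vector (edgeR adjusted p = 0.0471). At that vector median it could pass the filter on low counts only with TNBS or IBC libraries. Its pass is therefore not taken as support. Ly6c2, which marks the monocytes that CCR2 mobilises, had a median of 10.4 CPM in IBC, 15.98 in TNBS and 10.98 in vector, and did not pass (log2 difference 0.28 ± 0.39, SE, edgeR, for TNBS against vector). The summed level of the monocyte markers was 342 to 1256 CPM in IBC, 497 to 2531 in TNBS and 385 to 977 in vector, most of it from Plac8 with a median of 549, 639 and 542 CPM. That of the macrophage markers was 403 to 1258 CPM in IBC, 414 to 1953 in TNBS and 212 to 784 in vector, and that of the neutrophil markers 30.3 to 256, 99.1 to 978 and 6.14 to 159 CPM. TNBS 5, highest in Ccl2, Ccl7, Ccr1 and Ccr2 among TNBS libraries, was also highest in all 3 sums, and none of the listed markers was at 0 in every library.

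In IBC against TNBS, 1 macrophage marker was higher at an unadjusted p under 0.05 (Csf1r), and 1 monocyte marker (Chil3) and 1 neutrophil marker (Il1r2) were lower, where 1.71% of all genes were higher and 2.22% lower. In IBC against vector 3 of 9 monocyte, 10 of 12 macrophage, 8 of 9 neutrophil, 5 of 7 mast cell, 2 of 7 T and NK cell and 4 of 6 fibroblast markers were higher at an unadjusted p under 0.05, against 4.9% of all genes. In that comparison 2 of 5 smooth muscle markers (Myh11 and Cnn1) were lower, against 3.63% of all genes, and edgeR called 0 of these markers over all genes. IBC 2, lowest of the IBC libraries in Ccr2, Ccr1 and Ccl2, was also lowest in the macrophage sum (403 CPM) and the neutrophil sum (30.3 CPM), but above IBC 1, 4 and 6 in the monocyte sum (663 CPM), in which IBC 5, the other library low in Ccr2, was highest (1256 CPM). The part of these cells in the levels of the 8 genes was not tested. B cell, endothelial, epithelial and adipocyte lists had 0 members at an unadjusted p under 0.05 between TNBS and vector, the eosinophil list 0 of 3 tested, the T and NK cell list 1 of 7 (Gzmb, higher), the fibroblast list 1 of 6 (Pdpn, higher) and the smooth muscle list 1 of 5 (Myh11, lower). Over all genes 10.4% were higher and 7.32% lower at that p.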

How the data were processed

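RNA was measured in 18 colon libraries, 6 per group. Reads were trimmed with cutadapt 1.9 per the submitters' processing notes, while no source used here gives the aligner, counting program, annotation or build. The authors' deposited table gives whole-number counts and FPKM per gene and library, per the file headers. Genes were filtered with filterByExpr (edgeR 4.0.16), which kept 20855 genes and all 8 members, and totals were scaled by TMM. One edgeR quasi-likelihood fit of all 18 libraries gave two-sided tests, adjusted by Benjamini-Hochberg over all genes at a threshold of 0.05. The SE is the log2 difference over the square root of F. Alternatives used limma 3.58.1 and DESeq2 1.42.0 under R 4.3.3, and exact permutation tests used scipy 1.17.1. The fit was tested on simulated data. No pair of libraries held identical values, and libraries were treated as unpaired. Hoxb13-high means above 10 CPM. The members, lists and tests were chosen with earlier results of these data known. Named genes are the members, the 3 genes most like each, and up to 3 per list with the smallest p between TNBS and vector, and others were chosen after their values were seen. The total count of a library sets the precision of its values. A result for 1 gene is not reported here.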

Additional observations from a re-analysis of the deposited data

Results flagged for a closer look

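In TNBS, 1 library lay far from the other 5 in both receptors. Ccr1 in TNBS 5 was 38.6 CPM, and its gap to the next library took 0.752 of the range of the group. Ccr2 in TNBS 5 was 22.7 CPM, with a gap of 0.667 of the range. The check was Dixon's ratio of gap to range on linear CPM, in 24 sets of 6 libraries (8 genes in 3 groups). Chance alone marks about 5 in 100 such sets if values are normally distributed. That rate need not hold for skewed CPM, and the check was not run on a log scale. Both marks come from the same library, so they are not independent.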

How the results depend on the processing

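Counts of members passing in TNBS against vector were 0 with all 18 libraries, 7 with DESeq2 (5 without TNBS 5), 4 with the log2 ratio of Hoxb13 to Hoxb6 (the Hox score) as a covariate, and 0 to 4 without 1 library. In IBC against vector they were 0, 7 with DESeq2 (8 without TNBS 5), 1 with the Hox score, 1 in the 12 Hoxb13-high libraries alone and 1 within the high set of the fit with a mean per group and set, and 0 to 1 without 1 library. In IBC against TNBS they were 0 in every setting run. Over all genes, TNBS against vector gave 4 genes, 560 with DESeq2 (255 without TNBS 5), 135 with the Hox score, 2 with the stricter filter, 1 with the replicate block or log2(FPKM + 0.01), 0 with no filter, counts divided by 4, log2(FPKM + 0.1), log2(FPKM + 1), the 2 groups alone or either Hoxb13 set alone, and 0 to 323 without 1 library. IBC against vector gave 0, 197 with DESeq2 (301 without TNBS 5), 36 with the Hox score, 8 with the 2 groups alone, 30 in the 12 and 90 within the high set, and 0 to 5 without 1 library. IBC against TNBS gave 0, 4 with DESeq2 (3 without TNBS 5), and 0 to 1 without 1 library. The fits without TNBS 5 by DESeq2 and with a mean per group and set were added after seeing the data.

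All 8 genes stayed above 0 in TNBS against vector and in IBC against vector in every setting that gave a value. In IBC against TNBS, Ccl2, Ccl7 and Ccl12 stayed below 0 and Ccl8 above 0. In the 6 Hoxb13-low libraries alone, Ccr2 (-0.54), Ccl4 (-0.65) and Ccr1 (-0.15) were below 0. Without 1 library Ccr1 ran from -0.11 to 0.52 and Ccl3 from -0.31 to 0.31. The cause of these changes was not tested. Ccl3 and Ccl4 gave no value under filters that removed them. Of 18 pairs of libraries that share a number across groups, 7 had deviations correlated by more than 0.1 (median -0.0208), so the numbers were not taken to pair libraries, and with the replicate block 0 of the 8 genes passed in each comparison and 1 gene passed in TNBS against vector. Depth limits Ccl3 and Ccl4, with at most 84 and 58 counts.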
